A study of Mus musculus with 23 samples.

Results

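Mt1 and Mt2, which encode the metallothioneins present in most mouse tissues, were followed together with the zinc-sensing transcription factor Mtf1, the zinc exporters Slc30a1 and Slc30a4 and the zinc importers Slc39a1, Slc39a10 and Slc39a14. The 8 genes were chosen by their levels with each compound relative to DMSO, so those differences are given as a description with no test. They are 8 of the 20145 genes named on the array, and they were read by 10 of its 55681 non-control probes. TM4 cells, an immortalized Sertoli cell line taken from immature mouse testis, were given 1 of 5 plasticizer compounds at 100 μM for 48 hr, and every group, the DMSO controls included, received 1% DMSO. The compounds were MEHP (mono(2-ethylhexyl) phthalate, a phthalate monoester), DINCH (diisononyl cyclohexane-1,2-dicarboxylate), BDB (1,4-butanediol dibenzoate), DOM (dioctyl maleate) and DOS (dioctyl succinate). There were 4 biological replicates per group and 3 for DOS (replicates 1, 3 and 4), each on its own Agilent 1-colour array, and the 23 arrays lay on 3 slides. The cells are a single line grown alone, and no other testicular cell type was part of the culture.

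Metallothioneins are small cysteine-rich proteins that bind zinc, copper and cadmium. When free zinc rises, MTF1 binds metal response elements in the promoters of Mt1, Mt2 and Slc30a1 and raises their transcription, and glucocorticoids and oxidative stress also act on the metallothionein promoters. Zinc exporters of the Slc30 family carry zinc out of the cytosol, across the plasma membrane or into vesicles, and Slc39 importers carry it in. In the testis, Sertoli cells nurse the germ cells, and metallothioneins are known there for binding cadmium, a testicular toxicant.

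The promoter of Mt2 is shown because its window held the most metal response element cores among the genes with a window. Windows of 250 bases before to 50 bases after the transcription start were taken from RefSeq on GRCm38.p6, and 7 of the 8 genes had one (Slc39a14 is only named here). The core was searched on both strands as TGCACNC or TGCGCNC, and the antioxidant response element core as TGACNNNGC. The 250 bases before the Mt2 start, at chr8:94172368-94172617 on the plus strand, read as follows, with the metal response element cores in capitals.
Mt2: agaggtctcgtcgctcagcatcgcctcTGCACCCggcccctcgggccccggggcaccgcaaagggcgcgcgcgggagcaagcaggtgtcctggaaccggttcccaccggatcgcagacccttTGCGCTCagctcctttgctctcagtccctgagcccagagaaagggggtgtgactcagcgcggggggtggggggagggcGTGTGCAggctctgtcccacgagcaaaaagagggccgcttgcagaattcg
The Mt2 cores began 223, 128 and 50 bases before the start, the last of them on the other strand, and a further core lay from base 5 after the start, which made 4. An antioxidant response element core began 79 bases before the start and did not overlap any of them. Mt1 lies downstream on the same strand and had 3 cores in its window, 1 of them before the RefSeq start and 2 after it. The counts depend on the start used, and sequence beyond 50 bases after it was not searched, so they do not rank whole promoters. Slc30a1 had 2 cores, 1 on each side of its start, and Slc30a4, on chromosome 2, had 3. The single cores before the starts of Mt1 and Slc30a1 are given with their flanks for comparison, at chr8:94179059-94179079 and at chr1:191906731-191906751, both on the plus strand, with the core in capitals.
Mt1: cccgctgTGCACACtggcgct
Slc30a1: gggttccGAGTGCAaagcaaa
The windows of Mtf1, Slc39a1 and Slc39a10 held no metal response element core, while Slc30a1 and Slc39a1 each held 1 antioxidant response element core. Of all 32851 windows, 25.7% held at least 1 metal response element core and 1.97% held 3 or more, and 12.4% held an antioxidant response element core. A match is a description of the letters and not a bound site.

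**Figure D1:**
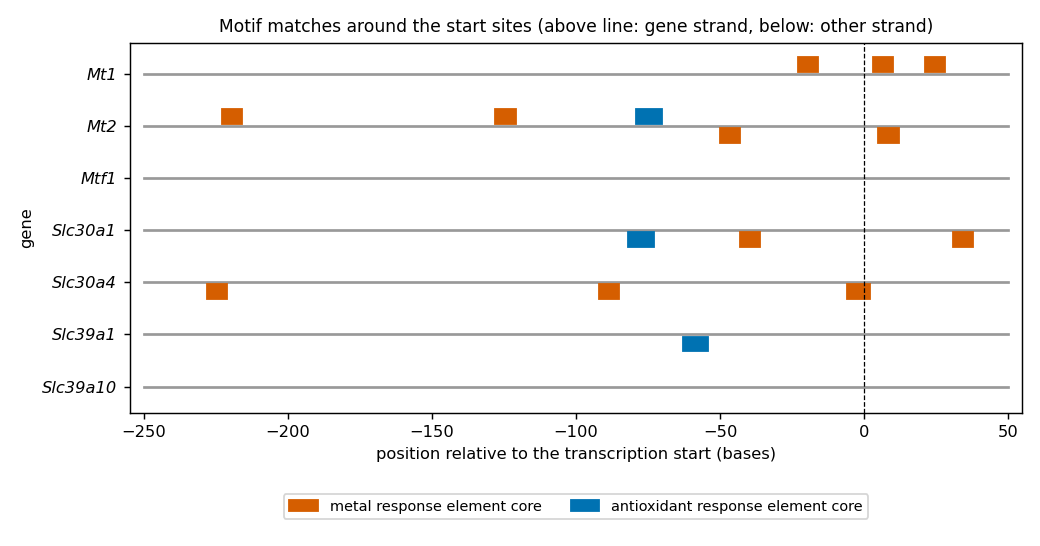
Matches to the metal response element core (orange) and the antioxidant response element core (blue) around the transcription start of the 7 genes with a promoter window. The x axis is the position in bases relative to the start, boxes above a line lie on the gene's strand and boxes below it on the other strand. Mt2 has 4 orange boxes, Mt1 and Slc30a4 have 3 and Slc30a1 has 2.

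All 8 genes were well above background on all 23 arrays by at least 1 probe. The share of spots well above background ran from 43.4% to 52.2% over the arrays, no spot was saturated, and the number of arrays limits the precision. The 75th percentile of the processed signal, to which each array was scaled, ran from 204.6 to 350.7. Levels are given as the log2 of the processed signal minus this percentile, so that 1 unit is a doubling, and levels of different probes cannot be compared. Of the Sertoli cell markers, Gata4, Dhh, Inhbb and Inha were well above background on all 4 DMSO arrays, whereas Wt1, Fshr and Cldn11 were not above background on any array. Of the markers of other testicular cells, Ddx4, Dazl, Cyp11a1, Lhcgr and Ptprc were not above background on any array, and Cyp17a1, Csf1r, Prm1, Pecam1 and the peritubular or fibroblast markers Acta2, Pdgfra and Col1a1 were above it on all 23. With DINCH 2 of the 7 Sertoli markers tested were called higher than DMSO, beside 8.24% of all genes called (4.25% higher). They were Dhh (1.09, SE 0.14) and Inha (0.64, SE 0.15) on the log2 scale. Inhbb differed by -0.88 (SE 0.30) and Sox9 by -0.36 (SE 0.16), neither of them called. Of the other markers, 1 Leydig, 1 germ cell, 3 peritubular or fibroblast, 1 endothelial and 1 macrophage marker were tested with DINCH. None was called, and beside a share of 8.24% these are too few to read anything from. Marker calls were not particular to DINCH. With DOM, of the 7 Sertoli markers tested, Inha (1.05, SE 0.14) and Inhbb (1.61, SE 0.27) were called higher and Sox9 (-0.92, SE 0.15) lower. Of the 3 peritubular or fibroblast markers tested, 1 was called higher. These calls stand beside 20.5% of all genes called with DOM (9.89% higher, 10.6% lower).

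DMSO, DOM and DOS lay at array positions 2 and 4 of the slides, and MEHP, DINCH and BDB at positions 1 and 3. For MEHP, DINCH and BDB against DMSO, the position and the compound therefore cannot be told apart. DOM and DOS share their positions with DMSO, and MEHP, DINCH and BDB share theirs with each other.

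Mt1 and Mt2 were higher on every DINCH array than on any other array of the series. The Mt2 level was 6.60, 4.63, 3.76 and 5.37 on DINCH arrays 1 to 4, against 2.96, 3.08, 3.06 and 2.62 on DMSO arrays 1 to 4. The lowest DINCH array lay above the highest of the 19 other arrays, which reached 3.54. In processed signal, before scaling, Mt2 read 3977.4 to 19820.0 with DINCH and 1442.1 to 2645.8 with DMSO, so the groups were also apart without the scaling. The mean Mt2 level was 5.09 ± 1.20 (SD, n = 4) with DINCH and 2.93 ± 0.21 (SD, n = 4) with DMSO, a log2 difference of 2.16 (SE 0.50), or 4.46-fold.

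The Mt1 level was 8.93, 7.77, 7.30 and 8.41 on DINCH arrays 1 to 4, against 6.33, 6.87, 6.39 and 6.72 on DMSO arrays 1 to 4. No array outside the DINCH group went above 7.14. The mean was 8.10 ± 0.71 (SD, n = 4) with DINCH and 6.58 ± 0.26 (SD, n = 4) with DMSO, a log2 difference of 1.52 (SE 0.31), or 2.88-fold. Both metallothioneins were thus higher with DINCH, and Mt1 was already bright in control cells, at a processed signal of 24760.4 to 28216.7.

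The 4 DINCH arrays differed widely among themselves, and they fell in the same order for both genes. Array 1 was highest, then array 4, array 2 and array 3. The DINCH arrays spanned 2.83 log2 units for Mt2 and 1.63 for Mt1, while the 19 other arrays together spanned 0.91 and 1.12. The order was the reverse of that of the arrays' 75th percentile signal, which was 204.6, 243.2, 292.8 and 242.0 on DINCH arrays 1 to 4. These percentiles spanned 0.52 log2 units, less than the span of either gene, and their part in the spread of the DINCH arrays was not tested. The extraction software marked DINCH arrays 1 and 2 for evaluation and arrays 3 and 4 as in range. Within slides, DINCH minus DMSO was 3.63 on slide 1, 1.56 on slide 2 and 1.94 on slide 3 for Mt2. For Mt1 it was 2.60, 1.14 and 1.13. Since every DINCH array lay above every DMSO array, the shared direction was fixed in advance and adds no support. The difference was largest on slide 1, which holds DINCH array 1. Without DINCH array 1, the difference was 1.65 (SE 0.33) for Mt2 and 1.25 (SE 0.26) for Mt1.

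**Figure D2:**
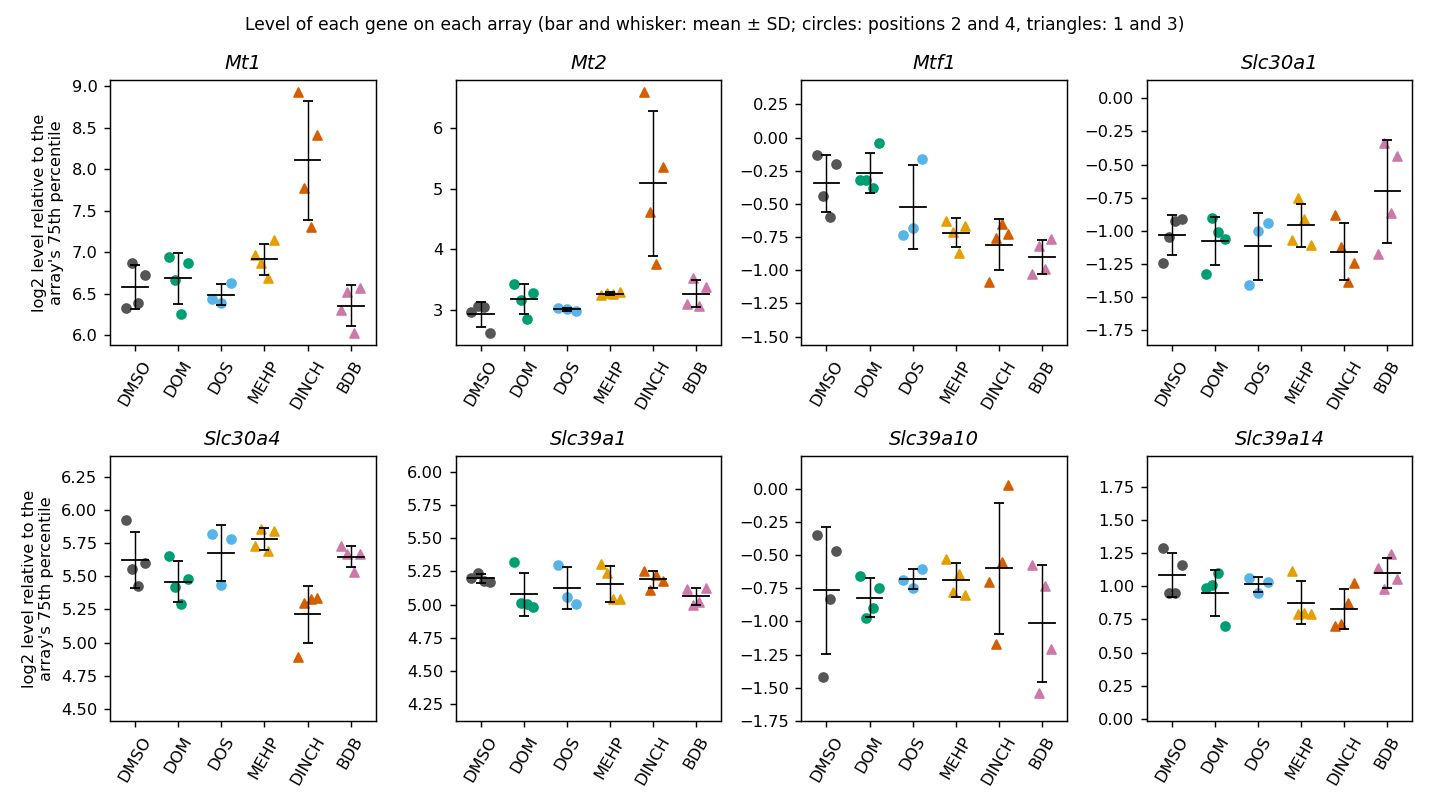
Level of each of the 8 genes on each array, by group, as log2 of the processed signal relative to the array's 75th percentile (y axis, which differs between panels). Points are arrays (circles at positions 2 and 4, triangles at 1 and 3), and bars with whiskers are the mean ± SD of 3 or 4 arrays. The 4 DINCH arrays stand above the other 19 for Mt1 and Mt2, and the groups overlap for most other genes.

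With the other compounds the metallothioneins stayed near the DMSO level. Mt2 was 3.25, 3.27, 3.27 and 3.30 on MEHP arrays 1 to 4, all above the 4 DMSO arrays, with a mean difference of 0.34 (SE 0.11). It was 3.11, 3.54, 3.06 and 3.38 with BDB, a difference of 0.34 (SE 0.14) whose arrays overlapped those of DMSO. MEHP and BDB share positions 1 and 3, and their means lay 0.0005 log2 units apart. Mt2 was 3.43, 3.18, 2.85 and 3.29 with DOM (difference from DMSO 0.26, SE 0.15) and 3.03, 3.02 and 2.98 with DOS (0.08, SE 0.13), and both overlapped DMSO.

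For Mt1 the MEHP arrays read 6.96, 6.86, 6.69 and 7.14, the BDB arrays 6.31, 6.53, 6.03 and 6.56, the DOM arrays 6.94, 6.67, 6.25 and 6.87 and the DOS arrays 6.44, 6.39 and 6.63. All 4 groups overlapped DMSO, with mean differences of 0.33 (SE 0.15), -0.22 (SE 0.16), 0.10 (SE 0.18) and -0.09 (SE 0.15). The order of the Mt1 means was DINCH, MEHP, DOM, DMSO, DOS and BDB, and that of Mt2 was DINCH, MEHP, BDB, DOM, DOS and DMSO. In both orders the ranges of neighbours overlapped except for DINCH and the group next to it, which lay 1.19 lower for Mt1 and 1.82 lower for Mt2.

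Across the 23 arrays the Mt1 and Mt2 levels had a Pearson r of 0.93 and a Spearman rho of 0.73. Over the 19 arrays without DINCH, r was 0.40 and rho 0.51. These are descriptions, since arrays of a group share their treatment and the 4 DINCH arrays set much of r.

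**Figure D3:**
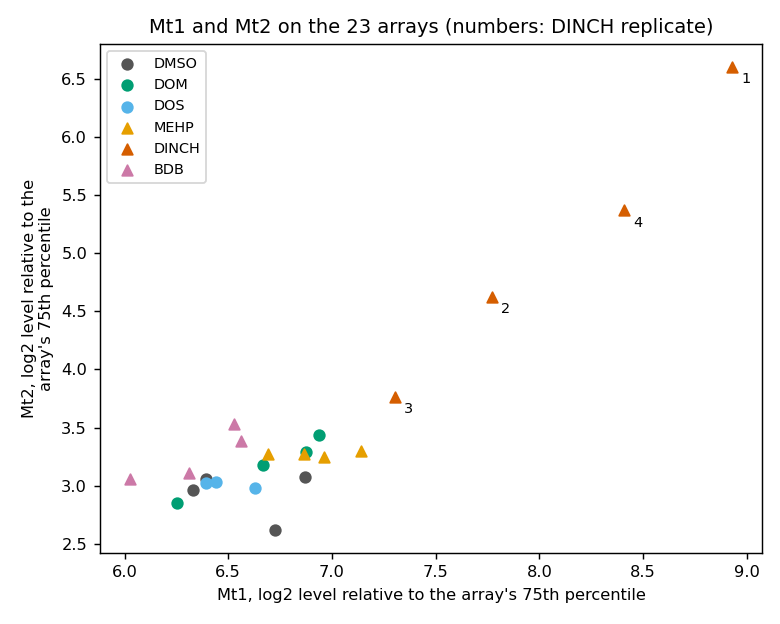
Mt2 level against Mt1 level on the 23 arrays, both as log2 relative to the array's 75th percentile, coloured by group, with circles at positions 2 and 4 and triangles at 1 and 3. The numbers mark the DINCH replicates, which run from 7.30 to 8.93 for Mt1 and from 3.76 to 6.60 for Mt2 in the same order, away from the other arrays.

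Mtf1, the zinc sensor that drives metallothionein transcription, gave opposite directions on its probes. By the brighter probe its level was -0.63 to -1.09 on the 12 arrays of MEHP, DINCH and BDB and -0.04 to -0.74 on the 11 arrays of DMSO, DOM and DOS. By this probe every MEHP, DINCH and BDB array lay below every DMSO array, with differences of -0.37 (SE 0.12), -0.46 (SE 0.14) and -0.56 (SE 0.12). By the other detected probe the same groups were higher than DMSO, by 0.26 (SE 0.15), 0.27 (SE 0.10) and 0.27 (SE 0.12). In both probes the medians split by array position, -0.76 at positions 1 and 3 against -0.32 at 2 and 4 by the brighter probe and -0.70 against -1.10 by the other, with overlapping ranges. The compound and the position cannot be told apart here. For DOM and DOS, which share the positions of DMSO, the brighter probe differed by 0.08 (SE 0.13) and -0.18 (SE 0.18) and the other by -0.28 (SE 0.18) and -0.13 (SE 0.11). Another Mtf1 probe was not above background on any array. No direction is given for Mtf1 as a gene.

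Slc30a1, which exports zinc across the plasma membrane and is a textbook MTF1 target, stayed near its DMSO level with DINCH. Its level was -0.88, -1.12, -1.38 and -1.24 on DINCH arrays 1 to 4 and -1.24 to -0.91 on the DMSO arrays, a difference of -0.13 (SE 0.13). DINCH had the lowest mean of the 6 groups. BDB had the highest, at -0.70 ± 0.39 (SD, n = 4), 0.33 (SE 0.18) above DMSO with overlapping arrays. MEHP, DOM and DOS differed from DMSO by 0.07, -0.04 and -0.09.

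Slc30a4, which loads zinc into intracellular vesicles, was lower on all 4 DINCH arrays (4.89, 5.30, 5.33 and 5.33) than on any DMSO array (5.42 to 5.92). The difference was -0.41 (SE 0.14), or 1.33-fold, and it was -0.31 (SE 0.13) without DINCH array 1, the lowest of the 4. With MEHP, DOM, BDB and DOS the difference lay between -0.17 and 0.15, and the arrays overlapped those of DMSO.

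Of the importers, Slc39a1, which brings zinc in at the plasma membrane, differed from DMSO by -0.13 to -0.01 over the 5 compounds, and its DMSO arrays spanned 5.17 to 5.24. All 4 BDB arrays, at 5.12 or lower, lay below the DMSO arrays (difference -0.13, SE 0.08), while the other groups overlapped DMSO. Slc39a14, an importer of zinc, iron and manganese, was lowest with DINCH (0.83 ± 0.15, SD, n = 4) and read 1.09 ± 0.17 (SD, n = 4) with DMSO and 0.02 (SE 0.11) more with BDB, the highest group, and all neighbouring groups overlapped. Slc39a10, another plasma membrane importer, varied widely within DMSO, DINCH and BDB (SD 0.48, 0.49 and 0.44, n = 4 each). Within MEHP, DOM and DOS its SD was lower, at 0.13, 0.14 and 0.08 (n = 4, 4 and 3). Its DMSO arrays ran from -1.42 to -0.35 and its DINCH arrays from -1.17 to 0.03, a mean difference of 0.17 (SE 0.29).

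In the counts that follow, a called gene has at least 1 probe that differed by over 1.5-fold with a limma adjusted p under 0.05. For DINCH, Mt1 and Mt2 were called, 2 of 8, and both were higher, beside 8.24% of all genes tested that were called in either direction (4.25% higher, 4.00% lower). For MEHP 0 of 8 were called, beside 1.67% of all genes (1.13% higher, 0.544% lower), and for DOM 0 of 8, beside 20.5% (9.89% higher, 10.6% lower). For BDB and DOS 0 of 8 were called, beside 0% of all genes. Since the 8 genes were selected on these comparisons, nothing is read from their counts. No p adjusted over the 8 genes alone is given.

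Direct comparisons between compounds, which did not enter the choice of genes but use the same treated arrays, were made at the same dose and time for the 4 pairs that share array positions, with p-values adjusted over all tested probes of the 4 pairs. Because the DINCH arrays also set the values by which the genes were chosen, the tests below are no independent support for them. DINCH against BDB compares a cyclohexane diester with a dibenzoate ester, and Mt1 was higher with DINCH by 1.75 log2 units (95% interval 1.06 to 2.43, adjusted p = 0.0099) and Mt2 by 1.82 (0.73 to 2.90, adjusted p = 0.044). They were the 2 of 8 genes called, beside 9.43% of all genes in either direction and 5.21% higher. Within slides the Mt2 differences were 3.49, 1.33 and 1.18, and their shared direction follows from the non-overlapping arrays. With the slide as a block the Mt2 difference was 1.86 (SE 0.49) and was not called, nor was it with detection on 1 array, and with no filter on dim probes neither gene was called.

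MEHP and DINCH differ in the ring, aromatic in the phthalate and saturated in DINCH. MEHP is also a monoester, and its side chain is 2-ethylhexyl where those of DINCH are isononyl. With MEHP, Mt1 was lower than with DINCH by 1.19 log2 units (95% interval of the difference -1.87 to -0.51, adjusted p = 0.038) and Mt2 was lower by 1.82 (-2.89 to -0.74, adjusted p = 0.044). These were 2 of 8 genes, beside 3.25% of all genes called in either direction and 1.61% called lower. With no filter on dim probes or with detection on 1 array neither was called. Slc30a4 was higher with MEHP than with DINCH by 0.57 (SE 0.12, adjusted p = 0.019) on non-overlapping arrays, which at 1.48-fold is under the 1.5-fold limit, and with the slide as a block the difference was 0.62 (SE 0.12) and passed it. It also passed it without DINCH array 2, 3 or 4 or MEHP array 3, at 0.60 to 0.61. Against BDB, the Slc30a4 difference of DINCH was -0.44 (SE 0.12, adjusted p = 0.049), also under 1.5-fold and on non-overlapping arrays.

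The calls of Mt2, and of Mt1 for MEHP against DINCH, were lost in most fits that left out 1 array. For DINCH against BDB the Mt1 call held in 8 of the 8 fits that each left out 1 array (differences of 1.47 to 2.01), and the Mt2 call in 2 of 8. The Mt2 call was lost without any 1 of the 4 BDB arrays or without DINCH array 2 or 4, where the difference was 1.72 to 1.97. Its SE there was 0.535 to 0.559, against 0.49 with all arrays. For MEHP against DINCH both calls held in 2 of 8 fits. They were lost without any 1 of the 4 MEHP arrays and without DINCH array 4, Mt1 also without DINCH array 1 and Mt2 also without DINCH array 2, and over these fits the differences were -1.27 to -0.91 for Mt1 and -1.97 to -1.72 for Mt2. In all of these fits the sign was kept, which leaving out 1 array could not change because the arrays of the groups did not overlap.

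MEHP against BDB and DOM against DOS gave no called gene among the 8, beside 2.94% and 13.8% of all genes. Mt1 was higher with MEHP than with BDB by 0.56 (95% interval 0.24 to 0.87, adjusted p = 0.038) on non-overlapping arrays, under the 1.5-fold limit. It passed that limit in 3 of the 8 fits that each left out 1 array, without BDB array 2, BDB array 4 or MEHP array 3, at 0.61, 0.63 and 0.63. Mt2 did not differ detectably between MEHP and BDB (0.00, 95% interval -0.25 to 0.25). DOM and DOS differ in the double bond of the maleate, and between them the difference was 0.20 for Mt1 (95% interval -0.20 to 0.59, adjusted p = 0.51) and 0.17 for Mt2 (-0.16 to 0.51, adjusted p = 0.49).

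**Figure D4:**
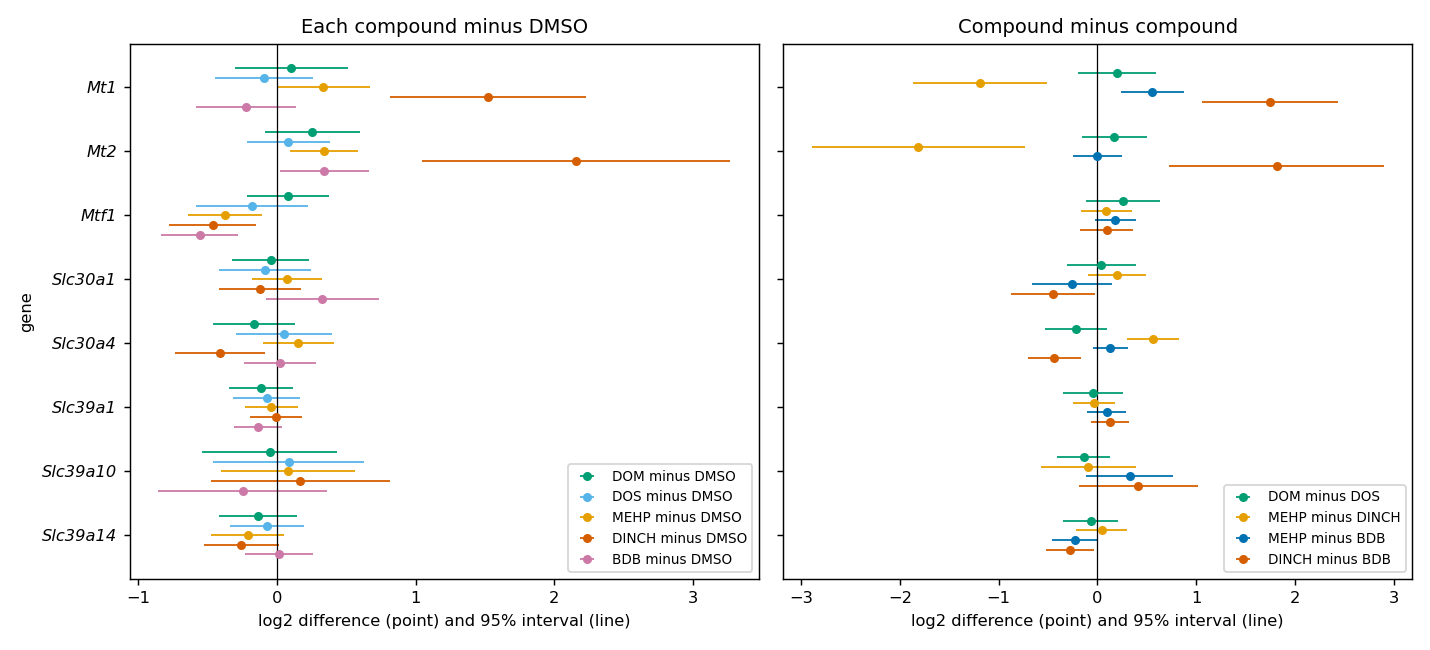
Differences in log2 level of the 8 genes, with 95% intervals from limma, for each compound minus DMSO (left, the values by which the genes were chosen) and for the 4 pairs of compounds at the same array positions (right). Points are mean differences of 4 arrays against 4, or 3 for DOS. The DINCH points of Mt1 and Mt2 lie furthest from 0 in both panels.

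The other zinc transporters, taken as the textbook members of the Slc30 and Slc39 families, numbered 19, of which 12 were bright enough to be tested with each compound. This list and those below were written with earlier results of these data known, so their adjusted p-values are a description. None was called for DINCH, beside 8.24% of all genes, and their differences ran from -0.26 to 0.32 with a median of 0.12, beside a median of -0.0005 over all genes. The importer Slc39a13, which releases zinc from the early secretory pathway, differed most with DINCH (0.32, SE 0.10), and its 4 DINCH arrays lay above the DMSO arrays, as did those of Slc39a11 (0.30, SE 0.10). With DOM 1 of the 12 was called, beside 20.5% of all genes: Slc30a7, an exporter into the Golgi, rose by 0.63 (SE 0.13, adjusted p = 0.0061) on a dim probe, while its brightest probe differed by 0.18 (SE 0.12). With MEHP, BDB and DOS 0 of 12 were called. The remaining metallothioneins, Mt3 and Mt4, which are known from brain and stratified epithelium, were above background on all 23 arrays, and with DINCH they differed from DMSO by -0.12 (SE 0.15) and 0.06 (SE 0.21).

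Adding Mt3, Mt4, copper handling genes and further MTF1 targets gave 35 zinc and metal genes, of which 27 were tested. With DINCH 0 of 27 were called, beside 8.24% of all genes, with a median of 0.03, and with MEHP, BDB and DOS 0 of 27, with medians of -0.11, -0.06 and -0.05. The 6 further MTF1 targets alone had a median of -0.18 with DINCH. Their median was -0.16 with MEHP, -0.25 with DOM, -0.11 with BDB and -0.16 with DOS. The copper importer Slc31a1 was higher on all 4 DINCH arrays than on the DMSO arrays (0.45, SE 0.11, adjusted p = 0.037) but under the 1.5-fold limit. With DOM 5 of 27 were called, 2 higher and 3 lower, beside 9.89% and 10.6% of all genes. Slc40a1, the iron exporter ferroportin, rose by 3.26 (SE 0.30, adjusted p = 0.00026), and Ndrg1, a hypoxia-responsive gene, fell by 0.92 (SE 0.17, adjusted p = 0.0035). The copper genes Commd1, which takes part in copper export, and Atp7b, a copper-transporting ATPase, fell by 0.72 (SE 0.11, adjusted p = 0.0016) and 0.67 (SE 0.21, adjusted p = 0.038). Atp7b was dim, well above background on 16 of the 23 arrays, and Commd1 was so on all 23. Mt1 and Mt2 differed from DMSO by 0.10 and 0.26 with DOM, and Mt3 and Mt4 by -0.39 (SE 0.15) and -0.22 (SE 0.25).

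Glucocorticoids and oxidants also act on metallothionein promoters, so their textbook targets were set beside the metallothioneins. These lists too were written with earlier results of these data known, and their adjusted p-values are no independent support. Of 6 glucocorticoid-induced genes tested with DINCH, 1 was called, beside 8.24% of all genes: Per1, a core clock gene, rose by 1.18 (SE 0.15, adjusted p = 0.0037). The list's median was 0.26 with DINCH, beside -0.0005 over all genes. It was 0.15 with MEHP, 0.01 with DOM, 0.06 with BDB and 0.15 with DOS, so a median above 0 was not particular to DINCH. Per1 also rose with MEHP, by 0.76 (SE 0.11, adjusted p = 0.016), the single gene of that list called there. With DOM the called gene was Sgk1, a kinase acting on ion channels, which rose by 0.77 (SE 0.14, adjusted p = 0.0033). With BDB and DOS 0 of 6 were called.

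Of 7 NRF2 targets, 2 were called with DINCH, in opposite directions, beside 8.24% of all genes. Nqo1, a quinone reductase, rose by 0.85 (SE 0.16, adjusted p = 0.0145) and Slc7a11, the cystine importer, fell by 1.60 (SE 0.31, adjusted p = 0.015), and the list's median was -0.21. With MEHP, BDB and DOS 0 of 7 were called. With DOM 5 of 7 were called, beside 20.5% of all genes, and all 5 rose (median of the list 0.97, beside -0.03 over all genes), led by Hmox1, the heme oxygenase, at 3.24 (SE 0.14, adjusted p = 1.59e-05), followed by Nqo1 at 1.86 (SE 0.18, adjusted p = 0.00029), Osgin1 at 1.04 (SE 0.11, adjusted p = 0.00036) and Srxn1 at 0.97 (SE 0.10, adjusted p = 0.00041).

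Among 12157 other genes, each by its brightest probe, those most like Mt2 over the 23 arrays were 2310039H08Rik (Pearson r 0.913), Yipf6 (0.913), Ogfod2 (0.911), Tgds (0.908) and 3110040N11Rik (0.907), all below the 0.93 of Mt1. Over the 19 arrays without DINCH their r with Mt2 was 0.57, 0.33, 0.52, 0.44 and 0.57. The points share array depth and slide, and the likeness rests in part on the 4 DINCH arrays. With DINCH these genes were higher than DMSO by 0.62 to 0.77, against 2.16 for Mt2.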

How the data were processed

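Per the labels and the study's methods, RNA was labelled with Cy3 and hybridized to 1-colour Agilent mouse arrays, and Feature Extraction 11.5.1.1 gave the deposited spot intensity values, which were linear and had local background subtracted, without scaling from array to array. A second deposited file holds log2 values that the authors shifted to the 75th percentile and centred on probe medians, and it served here as an alternative. Each array correlated with its own column there at 0.9996 or more and with no other above 0.404.

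From the processed intensity (floor 1) the log2 was taken and the 75th percentile of each array's non-control spots subtracted. Repeat spots of 1 probe were averaged, and outlier spots (102 to 187 per array) were left out where the probe had another spot. A probe whose spots were all outliers kept its value, and most probes had a single spot (59305 non-control spots for 55681 probes). Probes were named through their RefSeq accession (26582 probes, 20145 genes, 29099 unnamed), and genes are represented by their brightest probe. The array was designed on mm9, so no array positions were used. To be tested in limma 3.58.1 (R 4.3.3), a probe had to pass both limits, well above background and the 20th percentile, on all arrays of 1 or both groups compared, with Benjamini-Hochberg adjustment over all tested probes of a compound, or of the 4 pairs together. Replicates are biological by the series' description. Figures were drawn in Python 3.11 with matplotlib. The steps were tested on simulated data.

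The members, the gene lists and the tests were chosen with earlier results of these data known. All 8 members are named, from the lists the called genes (at most the 4 largest per list and compound with values), and the 5 genes with the highest r with Mt2. Slc39a11, Slc39a13, Slc31a1, Mt3 and Mt4, and Inhbb and Sox9 with DINCH, were named after their values were seen. All compounds share the same DMSO arrays. Values in the text come from fits without a replicate block. A block was fitted as an alternative, and the numbers met the criterion for pairing where each same-numbered pair's deviations correlated above 0.1, as for DINCH (0.169 to 0.491), BDB (0.241 to 0.432) and DOS (0.193 to 0.448) against DMSO and DINCH against BDB (0.144 to 0.367).

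Alternatives were quantile normalization, normexp background correction (offset 50), no filter, detection on 1 array only, a block for the slide or for the replicate, 1 fit of all 6 groups, keeping outlier spots, brightest probes only, a variance trend, the authors' table, leaving out each array in turn and, for the likeness to Mt2, Spearman's rho.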

Additional observations from a re-analysis of the deposited data

Results flagged for a closer look

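In 3 of the 40 groups of 4 arrays examined over the 8 genes, 1 array stood apart from the other 3, by a gap above Dixon's 95% limit for 4 values. Chance gives about 1 in 20 such groups. DINCH array 1 was low for Slc30a4, at 4.89, with the other 3 arrays up to 5.33. DOM array 1 was high for Slc39a1, at 5.32, with the group's lowest array at 4.98. MEHP array 1 was high for Slc39a14, at 1.12, with the lowest array at 0.79.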

How the results depend on the processing

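The number of members called was the same in all alternatives for MEHP, DOM, BDB and DOS against DMSO and for DOM against DOS (0 in each). With no filter on dim probes it was 0 for DINCH against DMSO, MEHP against DINCH and DINCH against BDB, in place of 2. With detection required on 1 array it was 0, 0 and 1 in these comparisons, and with the slide as a block 1 for DINCH against BDB, where Mt2 lost its call. No filter and detection on 1 array bring more probes into both the adjustment and the variance estimate. The differences themselves stayed as they were, but their SE rose. For Mt2 with DINCH against DMSO the SE was 0.50 as reported, 0.53 with no filter and 0.54 with detection on 1 array. Leaving out 1 array gave 0 to 2 called members for DINCH against DMSO, 0 to 3 for MEHP against DINCH, 0 to 1 for MEHP against BDB and 1 to 2 for DINCH against BDB. The Mt2 difference from DMSO with DINCH lost its call without DINCH array 4 (2.07) and without each DMSO array (2.06 to 2.21), and that of Mt1 without DINCH array 4 (1.42), DMSO array 1 (1.44) or DMSO array 3 (1.46). The other zinc and metal genes called with DOM numbered 3 with no filter and 3 with normexp, in place of 5, and 3 to 6 with 1 array left out, 3 of them without DMSO array 2. Ranking by Spearman's rho gave 0 of the same 5 genes most like Mt2. With the replicate block the DINCH difference from DMSO was 2.16 (SE 0.46) for Mt2 and 1.52 (SE 0.29) for Mt1, and the block changed no call of a member. Over all refits, 76 of 114 kept the call of a called member difference and 114 of 114 kept its sign. In these differences the arrays of the groups did not overlap, so leaving out 1 array could not reverse the sign. Of the refits of differences not called as reported, 8 of 1238 gave a call.

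All genes called were 3 with no filter, 98 with detection on 1 array and 113 with normexp for MEHP against DMSO (200 as reported), 97, 608 and 593 for DINCH (982), 30, 233 and 212 for MEHP against DINCH (385), and 26, 216 and 185 for MEHP against BDB (351). They were 64 with no filter and 997 with detection on 1 array for DOM against DOS (1648), 80 with no filter and 671 with normexp for DINCH against BDB (1122), and 1625 with normexp for DOM against DMSO (2459). For BDB against DMSO, with 0 as reported, they were 118 with all 6 groups in 1 fit, 95 with the slide as a block, 80 with a variance trend, 36 with normexp and 16 with brightest probes only, and for DOS 2 with normexp. Leaving out 1 array moved the counts by over 1.5 times in 3 comparisons with DMSO: MEHP gave 91 without DMSO array 3 and 116, 88 and 83 without MEHP arrays 1, 2 and 4, DINCH gave 570 without DMSO array 3, and DOS gave 8 without DOS array 3, in place of 0.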
